A study of Gallus gallus with 15 samples.

Results

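The livers of 3 Hyunin Black birds (coded Bl) were compared with those of 3 Yeonsan Ogye birds (Og), 6 of the 15 male chickens in the series. Samples were taken by the breed in their titles, and positive differences mean higher in Hyunin Black. Both are native breeds of Korea, and Yeonsan Ogye is known for black skin, bones and inner organs. The other 9 birds, 3 each of Hwangbong (Hw), Hoengseong Yakdak (Ya) and the control breed White Leghorn (WL), entered the model only to estimate the spread between birds of a breed, and their levels are given as context. All birds hatched from eggs of local farms, were raised at 1 university farm with free access to feed, and were sampled at 13 weeks of age. The labels name standard management and no treatment. How the birds of a breed were related is not given in the labels. Each liver was measured on 1 Affymetrix chicken gene array, and values are log2 expression after RMA (robust multi-array averaging). A step of 1 is a doubling. A bird is given by its breed code and number, such as Bl 1.

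The liver makes most plasma proteins, bile acids and, in birds, most fat and the uric acid that carries off nitrogen. It also holds macrophages and lymphocytes that respond to microbes arriving from the gut. Interferons are the secreted alarm proteins of antiviral defence, and they switch on a shared set of genes in hepatocytes and immune cells alike. Endothelin 3 (EDN3) drives the spread of pigment cells, and a duplicated segment that contains it underlies the dark skin of hyperpigmented chickens.

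The arrays read as liver in both breeds. The summed linear level of 19 hepatocyte markers was 113000 to 121000 in Hyunin Black and 113000 to 117000 in Yeonsan Ogye, and TTR, a plasma carrier protein, stood at 13.54 to 13.67 in Hyunin Black and 13.44 to 13.55 in Yeonsan Ogye. Correlations between the 6 arrays across features ranged from 0.978, between Bl 1 and Og 1, to 0.988, and the array medians from 6.14 to 6.20, with Bl 1 the highest. The median difference of all 18308 features was 0.0059, and 51.3% of them lay above 0. Array background was not measured. HINTW, a gene of the female-specific W chromosome that males lack, read 4.28 to 4.50 in Hyunin Black and 4.02 to 4.33 in Yeonsan Ogye, so levels near 4 are not shown to be above background. Of the other measured W-linked genes, UBAP2L2 read 1.90 to 2.94 in Hyunin Black and 1.97 to 3.24 in Yeonsan Ogye. ATP5F1AW, which has a Z-linked counterpart that males carry, read 6.01 to 6.32 in Hyunin Black and 6.13 to 6.65 in Yeonsan Ogye.

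To ask which transcripts separate the 2 breeds, Hyunin Black was set against Yeonsan Ogye over all features with limma. In all, 9 of 18308 features passed at a Benjamini-Hochberg adjusted p under 0.05, which is 0.0492% of those tested. Of these, 4 were higher in Hyunin Black (0.0218%) and 5 were lower (0.0273%). In every one of the 9 the birds of the 2 breeds did not overlap, as also held for 11.4% of all features. A single gene symbol was available for 6 of them, CRLF2, DCTD, MIR1803, CAPSL, PLBD1 and MAOA. The other 3 have no symbol in the platform annotation and are given by feature number. At an unadjusted p under 0.05, 1474 features differed (8.05%), 876 higher in Hyunin Black (4.78%) and 598 lower (3.27%). Differences of at least 1 on the log2 scale were found for 118 features, 75 higher and 43 lower. The plot of difference against level shows the few features that passed among a majority near 0.

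**Figure D1:**
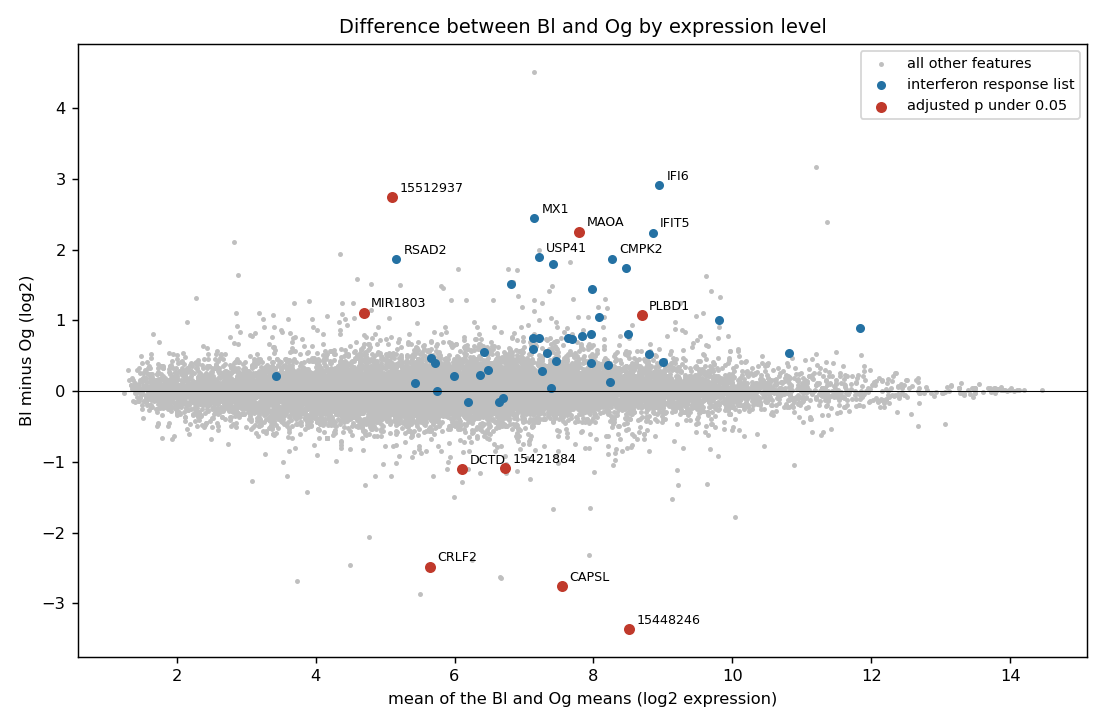
Each point is 1 of 18308 features, with the mean of the Bl and Og group means on the x axis (log2 expression) and Bl minus Og on the y axis (log2). Red points are the 9 features with an adjusted p under 0.05, from -3.36 to 2.74, and blue points are the 43 measured genes of the interferon response list, of which 39 lie above 0.

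For 4 of the 9 features it was Yeonsan Ogye that stood apart from all 12 other birds of the series. The 9 were selected for a difference between these 2 breeds. The share of all features in which either breed stood apart in this way was not computed. The feature 15448246 read 6.80, 6.91 and 6.77 in Hyunin Black, against 9.89, 10.26 and 10.41 in Yeonsan Ogye. The 9 birds of the other breeds lay between 5.87 and 7.55, on the Hyunin Black side of a wide gap. The difference was -3.36 ± 0.31 (standard error of the model, adjusted p = 0.000646), the lowest adjusted p of all features. CRLF2, which forms part of the TSLP cytokine receptor, read 4.83, 3.91 and 4.45 in Hyunin Black, against 6.96, 7.24 and 6.44 in Yeonsan Ogye. No other bird exceeded 4.97, and the Hyunin Black level is close to that of HINTW. CRLF2 fell by 2.48 ± 0.25 (adjusted p = 0.000897).

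The other 2 of these 4 were lowest in Yeonsan Ogye. PLBD1, a phospholipase-like protein of lysosomes and granules, read 9.53, 9.04 and 9.14 in Hyunin Black, against 8.21, 7.87 and 8.41 in Yeonsan Ogye. It rose by 1.07 ± 0.15 (adjusted p = 0.013), and the other breeds lay between the 2 groups or level with Hyunin Black, from 8.63 to 9.37. The feature annotated as the microRNA gene MIR1803 read 5.37, 5.03 and 5.35 in Hyunin Black, against 4.26, 4.17 and 3.98 in Yeonsan Ogye. It rose by 1.11 ± 0.15 (adjusted p = 0.00971). The other breeds read 4.96 to 5.80, so the Yeonsan Ogye birds were the low ones, at a level not shown to be above background.

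For 3 features it was Hyunin Black that stood apart from all 12 other birds. CAPSL, a calcyphosine-like protein with calcium-binding motifs, read 6.06, 6.24 and 6.19 in Hyunin Black, against 9.08, 9.12 and 8.57 in Yeonsan Ogye, and fell by 2.76 ± 0.36 (adjusted p = 0.00971). The spread within Hyunin Black (SD 0.09) and within Yeonsan Ogye (SD 0.31) was far smaller than the gap. White Leghorn and Hwangbong read near Yeonsan Ogye, whereas the Hoengseong Yakdak birds read 8.31, 7.84 and 6.28, the last of them next to Hyunin Black. The feature 15421884 read 6.12, 6.04 and 6.37 in Hyunin Black, against 7.50, 7.31 and 6.99 in Yeonsan Ogye, a fall of 1.09 ± 0.15 (adjusted p = 0.0134). The feature 15512937 read 6.56, 6.18 and 6.66 in Hyunin Black, against 4.61, 3.06 and 3.52 in Yeonsan Ogye, a rise of 2.74 ± 0.40 (adjusted p = 0.02). The other breeds filled the space between, from 4.44 to 6.11. Og 2 and Og 3 read below HINTW, so the Yeonsan Ogye level is not shown to be above background and the size of this difference is uncertain.

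In the last 2 features each breed had company. DCTD, the deaminase that supplies dUMP for thymidine nucleotide synthesis, read 5.59, 5.61 and 5.49 in Hyunin Black, against 6.93, 6.50 and 6.55 in Yeonsan Ogye, and fell by 1.10 ± 0.13 (adjusted p = 0.00606). Hoengseong Yakdak, at 5.40, 5.68 and 5.65, read like Hyunin Black, and the other 2 breeds like Yeonsan Ogye. MAOA, the monoamine oxidase that breaks down serotonin and noradrenaline, read 8.78, 8.69 and 9.29 in Hyunin Black, against 6.37, 6.98 and 6.65 in Yeonsan Ogye. It rose by 2.25 ± 0.35 (adjusted p = 0.0302), a fold of 4.76. Hwangbong was as high as Hyunin Black at 8.51, 9.67 and 9.65, Hoengseong Yakdak as low as Yeonsan Ogye, and White Leghorn spread from 6.84 to 8.30.

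**Figure D2:**
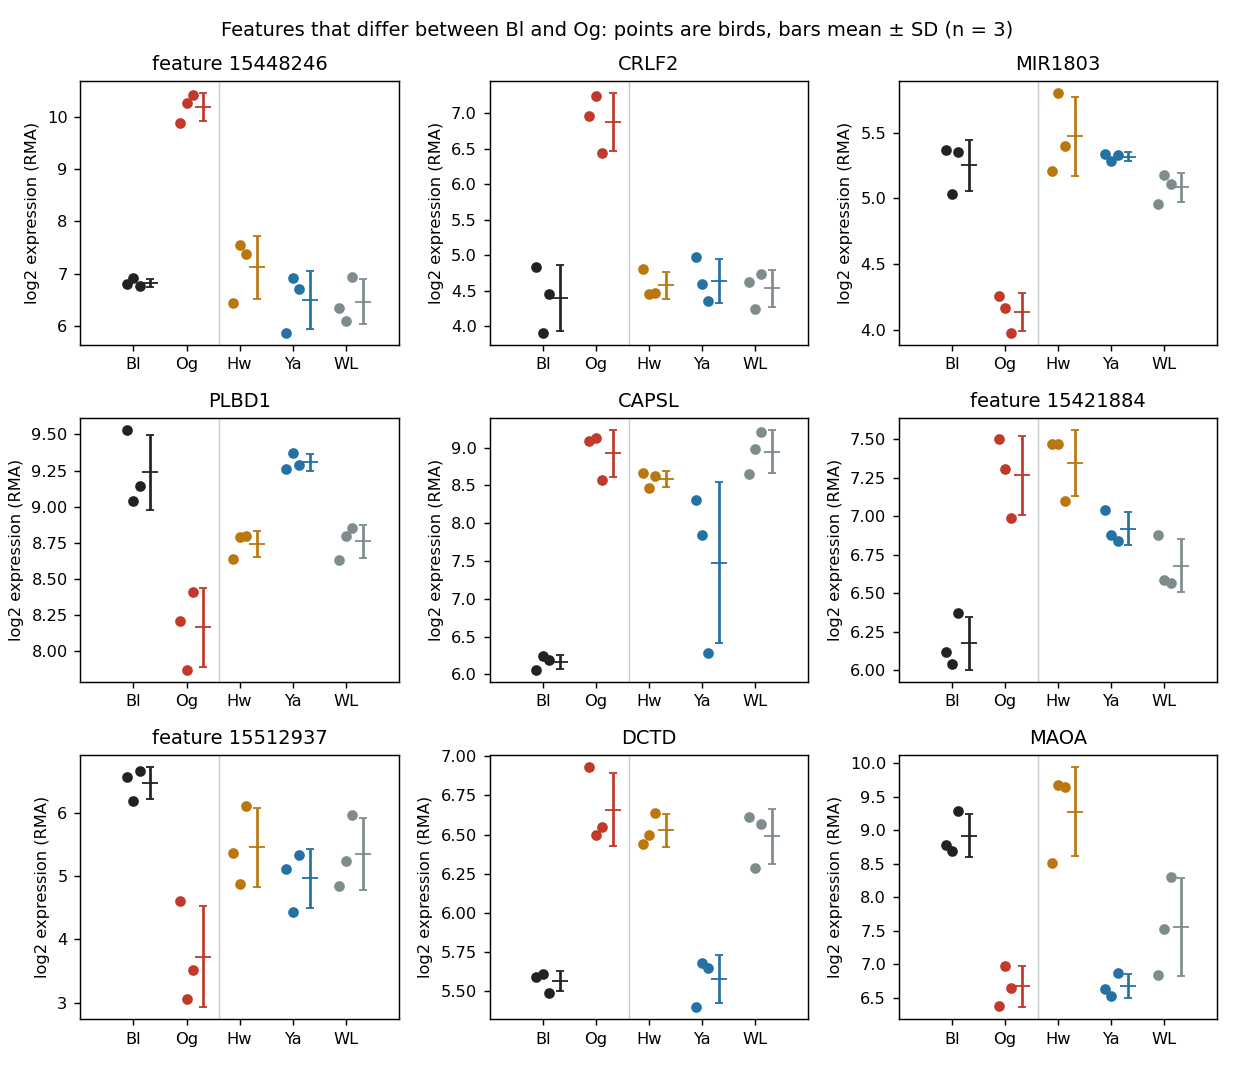
Log2 expression of the 9 features that passed, in each of the 15 birds, by breed; points are birds and bars are the mean ± SD of 3 birds. Bl and Og do not overlap in any panel, Og lies apart from the 12 other birds in the first 4 panels, and Bl does in the next 3.

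The number of features past the threshold rested on single birds. It was 4 without Bl 1, without Bl 3 or without Og 2, 15 without Og 3 and 47 without Bl 2, with 11 without Og 1. The feature 15448246, CRLF2 and DCTD passed in all 15 fits that left out 1 array. MIR1803, CAPSL and PLBD1 passed in 12 of 15 and were lost without Bl 1, Bl 3 or Og 2 (adjusted p up to 0.0653, 0.0575 and 0.0575). The feature 15421884 was lost without Bl 1, Og 1 or Og 2 (up to 0.0704) and the feature 15512937 without Bl 1, Bl 3, Og 2 or Og 3 (up to 0.149). MAOA passed in 7 of 15 fits, being lost without Bl 1, Bl 3, any Og bird, WL 2, Ya 1 or Ya 2 (up to 0.174). With only the 6 arrays of the 2 breeds 4 features passed, among them 15448246, CAPSL and MAOA.

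The 8 largest differences in each direction were then taken, whether or not they passed, among single-symbol features with an unadjusted p under 0.01 and no overlap between birds. Of the 8 higher in Hyunin Black, 6 belong to the interferon response list described below, and the others were MAOA and ND4L. That list holds 43 of the 11528 genes named by a single symbol. It was chosen with earlier results of these data known, so this count is not independent support. ND4L, a mitochondrially encoded subunit of respiratory complex I, read 9.36, 9.63 and 9.20 in Hyunin Black, against 5.40, 4.70 and 4.55 in Yeonsan Ogye (4.51 ± 1.04, adjusted p = 0.193). Birds of the other breeds ranged from 4.97 to 11.39, which spans the gap between the groups and exceeds Hyunin Black. It passed without Ya 3 (adjusted p = 0.000117) and with only the 6 arrays (adjusted p = 0.000919). The 10 other features carrying the same symbol differed by -0.56 to 0.57, with a smallest adjusted p of 0.694, so the features of this gene did not agree.

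The largest differences towards Yeonsan Ogye, after CAPSL and CRLF2, were in genes of varied function, and none of them passed. SPIA3 read 9.15, 8.16 and 10.13 in Hyunin Black, against 10.58, 10.84 and 11.36 in Yeonsan Ogye (-1.78 ± 0.45, adjusted p = 0.217). GSTT1L, a theta-like glutathione transferase, differed by -1.65 ± 0.50 and SUSD3, a sushi-domain membrane protein, by -1.50 ± 0.39. LYG2, a goose-type lysozyme that digests bacterial walls, read 9.06, 9.12 and 8.75 in Hyunin Black, against 10.21, 10.58 and 10.08 in Yeonsan Ogye (-1.31 ± 0.31, adjusted p = 0.201). ENDOUL at -1.42 ± 0.44 and SPATA4 at -1.29 ± 0.36 complete the set. Among these the birds did not overlap, but such separation was found in 5.12% of all features towards Yeonsan Ogye.

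The interferon response list had the highest median difference of the 37 lists examined. Of 43 measured genes, 39 lay above 0, with a median difference of 0.55 against 0.0059 over all features. At an unadjusted p under 0.05 in limma, 25 were higher in Hyunin Black (58.1%, against 4.78% of all features) and 0 were lower. The birds did not overlap in 20 genes, all higher in Hyunin Black, against 6.31% of all features. Over all features 0 members passed, and the smallest adjusted p was 0.085. The lists were chosen with earlier results of these data known, so the rank and counts of this list describe the data and are not independent support. Members given below outside the rule for named genes were chosen after their values were seen.

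IFI6, an interferon-induced mitochondrial protein, read 11.52, 9.16 and 10.50 in Hyunin Black, against 6.45, 7.44 and 8.57 in Yeonsan Ogye, a difference of 2.91 ± 0.54 or 7.51-fold (adjusted p = 0.085). The groups did not overlap, and Bl 2 was the Hyunin Black bird nearest to Yeonsan Ogye. MX1, a GTPase that blocks viral replication, read 10.13, 6.87 and 8.11, against 5.62, 5.80 and 6.37 in Yeonsan Ogye (2.44 ± 0.58, adjusted p = 0.199). IFIT5, which binds viral RNA ends, read 11.40, 8.44 and 10.07, against 7.06, 7.92 and 8.21 in Yeonsan Ogye (2.24 ± 0.53). In both genes Bl 1 was by far the highest and Bl 2 close to the Yeonsan Ogye range. USP41, of the ubiquitin-specific protease family, differed by 1.89 ± 0.46, CMPK2, a mitochondrial nucleotide kinase, by 1.87 ± 0.46 and OASL, an oligoadenylate synthetase, by 1.80 ± 0.45. RSAD2, or viperin, which makes a chain-terminating nucleotide, read 7.81, 4.74 and 5.72 in Hyunin Black, against 4.08, 4.39 and 4.22 in Yeonsan Ogye (1.86 ± 0.52), a level near that of HINTW.

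Further members are given for their known roles. IFIH1, or MDA5, a cytoplasmic sensor of double-stranded RNA, differed by 0.54 with an unadjusted p of 0.0333, and EIF2AK2, the RNA-activated kinase PKR, by 0.75 with an unadjusted p of 0.0454. For TLR3, an endosomal RNA receptor, the difference was 0.55 with an unadjusted p of 0.108. The transcription factors IRF1 and IRF7 differed by 0.74 and 0.75, and IRF8, of the myeloid lineage, by 0.41 with an unadjusted p of 0.192. Effectors of broader function included PARP14 (1.05 ± 0.23), LY6E (0.89 ± 0.19) and the guanylate-binding protein GBP1 (0.80 ± 0.17), each with an adjusted p of 0.169. GBP1 has 3 further features, at 0.76, 0.21 and 0.15, so its probes did not agree on the size. TAP1, UBA7, CCL19 and TMEM173 did not lie above 0.

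The 3 Hyunin Black birds differed widely among themselves in these genes. Relative to the mean of the 6 birds, the list median was 0.84 in Bl 1, -0.15 in Bl 2 and 0.28 in Bl 3, against -0.46 in Og 1, -0.27 in Og 2 and -0.23 in Og 3. The 9 birds of other breeds lay between -0.29 and 0.33, with a median of -0.22. Bl 1 exceeded every other bird, while Bl 2 and Bl 3 lay within the range of the other breeds, whose highest bird was Hw 3. Hwangbong averaged 8.24 for MX1 and 12.54 for LY6E, beside 8.37 and 12.28 in Hyunin Black. Among the 3 Hyunin Black birds, Bl 1 was the highest in 38 of 43 genes and Bl 2 the lowest in 37. The median difference was 0.29 without Bl 1, with 19 genes higher at an unadjusted p under 0.05, and 0.91 without Bl 2, with 30. Over all 18308 features, 1291 had such a p in either direction without Bl 1 and 1519 without Bl 2. Without Bl 2, 47 of the 18308 features passed, and 13 of them were members. These included IFI6, IFIT5, PARP14 and OASL (adjusted p = 0.0139 each). Without Og 3, 15 features passed, among them IFI6 (adjusted p = 0.0281). The map of the list by bird shows this order down nearly its whole length.

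**Figure D3:**
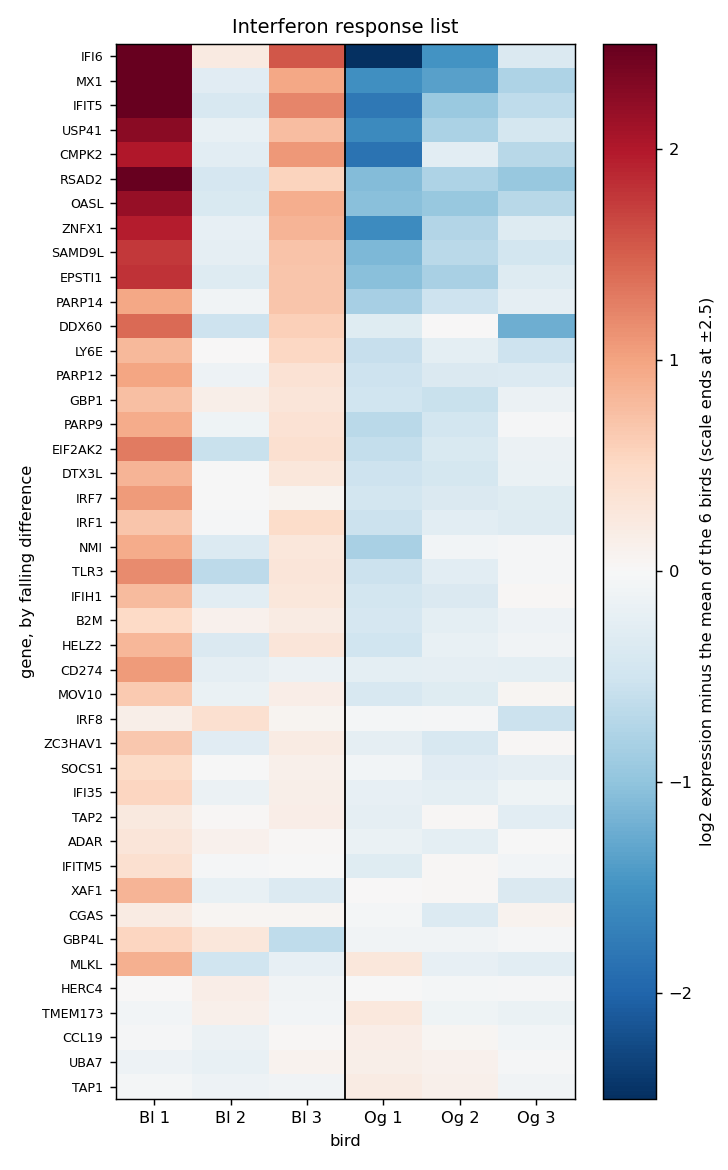
Log2 expression of the 43 measured interferon response genes (rows, by falling Bl minus Og difference) in 3 Bl and 3 Og birds (columns), each minus the mean of the 6 birds; the colour scale ends at ±2.5. Bl 1 is the highest Bl bird in 38 genes and Bl 2 the lowest in 37, and the Og birds lie below the mean in most rows of the upper part.

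Neighbouring immune lists lay on the same side with smaller differences. Of 16 measured genes of antigen presentation, 12 lay above 0 (median 0.22, with 51.3% of all features above 0), and 4 were higher at an unadjusted p under 0.05 (4.78% of all features). That count ranged from 1 without Og 1 to 5 without Bl 2, was 2 without Og 3, Bl 1, Bl 3, Hw 2 or Ya 2, and was 1 without Hw 3. B2M, the light chain of MHC class I and also a member of the interferon list, read 11.31, 10.92 and 11.03 in Hyunin Black, against 10.39, 10.57 and 10.68 in Yeonsan Ogye (0.54 ± 0.12, adjusted p = 0.175). TAPBP, which loads peptides, differed by 0.33 ± 0.15 and CIITA, the switch of class II genes, by 0.36 ± 0.16. B-G, related to butyrophilins and encoded in the chicken MHC, differed by 1.58 ± 0.72. It read 6.45, 4.36 and 5.36 in Hyunin Black, a wide spread, against 3.98, 3.84 and 3.62 in Yeonsan Ogye. The Yeonsan Ogye level is not shown to be above background, and the family of near-identical B-G copies makes the source of the signal uncertain. Of 27 genes of proinflammatory signalling, 17 lay above 0 (median 0.22), with 4 higher at an unadjusted p under 0.05 (4.78% of all features). The count was 1 without Og 1 or Bl 1 and 6 without Bl 2. It was 2 without Og 3, WL 3, Hw 2, Hw 3, Ya 1 or Ya 3. Members included TLR1A at 0.97 ± 0.39 and TLR2A, a receptor for bacterial lipoproteins, at 0.52 ± 0.24. TLR1A read 3.61, 4.14 and 3.79 in Yeonsan Ogye, a level not shown to be above background. In this list the birds did not overlap in 3 genes higher (6.31% of all features) and 3 lower (5.12%) in Hyunin Black. The medians of both lists were 0.13 without Bl 1. In 30 genes of acute phase and complement the median was 0.0077, and LBP, which presents bacterial lipopolysaccharide, differed by 0.75 ± 0.23, MASP2 of the lectin pathway by 0.39 ± 0.17.

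Markers of macrophages and T cells also lay mostly above 0. Of 9 macrophage markers 8 lay above 0 (median 0.24, and 0.10 without Bl 1), and 2 were higher at an unadjusted p under 0.05 (4.78% of all features), MRC1, the mannose receptor, at 0.35 ± 0.12 and SPI1, the myeloid factor PU.1, at 0.49 ± 0.22. The count was 0 without Og 1, 5 without Bl 2, and 1 without Og 2, Bl 1, WL 2 or any bird of Hwangbong or Hoengseong Yakdak. Their summed linear level was 7190 to 10600 in Hyunin Black and 6830 to 8020 in Yeonsan Ogye. Of 18 T and NK cell markers 13 lay above 0 (median 0.20, and 0.08 without Bl 1), with UBASH3A, CD247, CD3E and LCK, all of T cell receptor signalling, at 0.38 to 0.49 and higher at an unadjusted p under 0.05 (4.78% of all features). The count of 4 was 1 without Og 1, Og 2 or Bl 1. Their summed level was 1290 to 1520 in Hyunin Black and 1100 to 1400 in Yeonsan Ogye, so the groups overlapped. In 13 B and plasma cell markers 8 lay above 0 and 0 had an unadjusted p under 0.05 (8.05% of all features did). In bulk liver, more cells of a type and more RNA per cell cannot be told apart, and the part of immune cell content in the interferon and antigen presentation values was not tested. Heterophil markers lay on the other side through LYG2, with a summed level of 961 to 1300 in Hyunin Black and 1710 to 2360 in Yeonsan Ogye, while the 7 other measured members differed by -0.24 to 0.09.

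The EDN3 region was examined because Yeonsan Ogye is a hyperpigmented breed. ATP5E, a small subunit of ATP synthase encoded in the region, read 8.95, 9.67 and 9.38 in Hyunin Black, against 10.40, 10.22 and 10.12 in Yeonsan Ogye. All 3 Yeonsan Ogye birds were higher, and the 9 birds of the other breeds, at 8.93 to 9.40, lay with Hyunin Black. The difference of -0.91 ± 0.16 did not pass over all features (adjusted p = 0.085). Among the fits that left out 1 array, it passed only without Bl 2 (adjusted p = 0.0167), the Hyunin Black bird nearest to Yeonsan Ogye. PRELID3B, a lipid carrier of mitochondria, read 7.80, 8.29 and 7.64 in Hyunin Black, against 8.82, 8.85 and 8.52 in Yeonsan Ogye (-0.82 ± 0.31, adjusted p = 0.507). ZNF831, a zinc-finger protein, differed by -0.44 ± 0.16 with overlapping birds.

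The 5 other measured genes of the region were not lower in Hyunin Black beyond the spread between birds. EDN3 itself read 4.35, 4.22 and 4.13 in Hyunin Black and 4.62, 4.26 and 4.35 in Yeonsan Ogye, levels not shown to be above background. TUBB1, a tubulin of thrombocytes, read 6.42, 6.74 and 6.12 in Hyunin Black and 6.13, 6.85 and 6.45 in Yeonsan Ogye (-0.05 ± 0.24, with a 95% interval from -0.56 to 0.46). In both breeds TUBB1 was mostly above the other 9 birds, which read 5.35 to 6.27. NELFCD, of transcriptional pausing, differed by 0.03 ± 0.13, and NPEPL1, an aminopeptidase, by 0.37 ± 0.26, both with overlapping birds. CTSZ, a lysosomal protease, read 11.27, 11.26 and 11.30 in Hyunin Black, against 11.16, 11.19 and 11.20 in Yeonsan Ogye. Its birds did not overlap, but the difference was small (0.10 ± 0.09). In all, 3 of 8 genes were lower in Hyunin Black at an unadjusted p under 0.05 (3.27% of all features were) and 0 were higher, and the list median was -0.11. With 1 bird of either breed left out the median ranged from -0.19 to -0.05, and the lower count was 1 without Og 2 and 2 without Og 3 or any Hyunin Black bird.

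**Figure D4:**
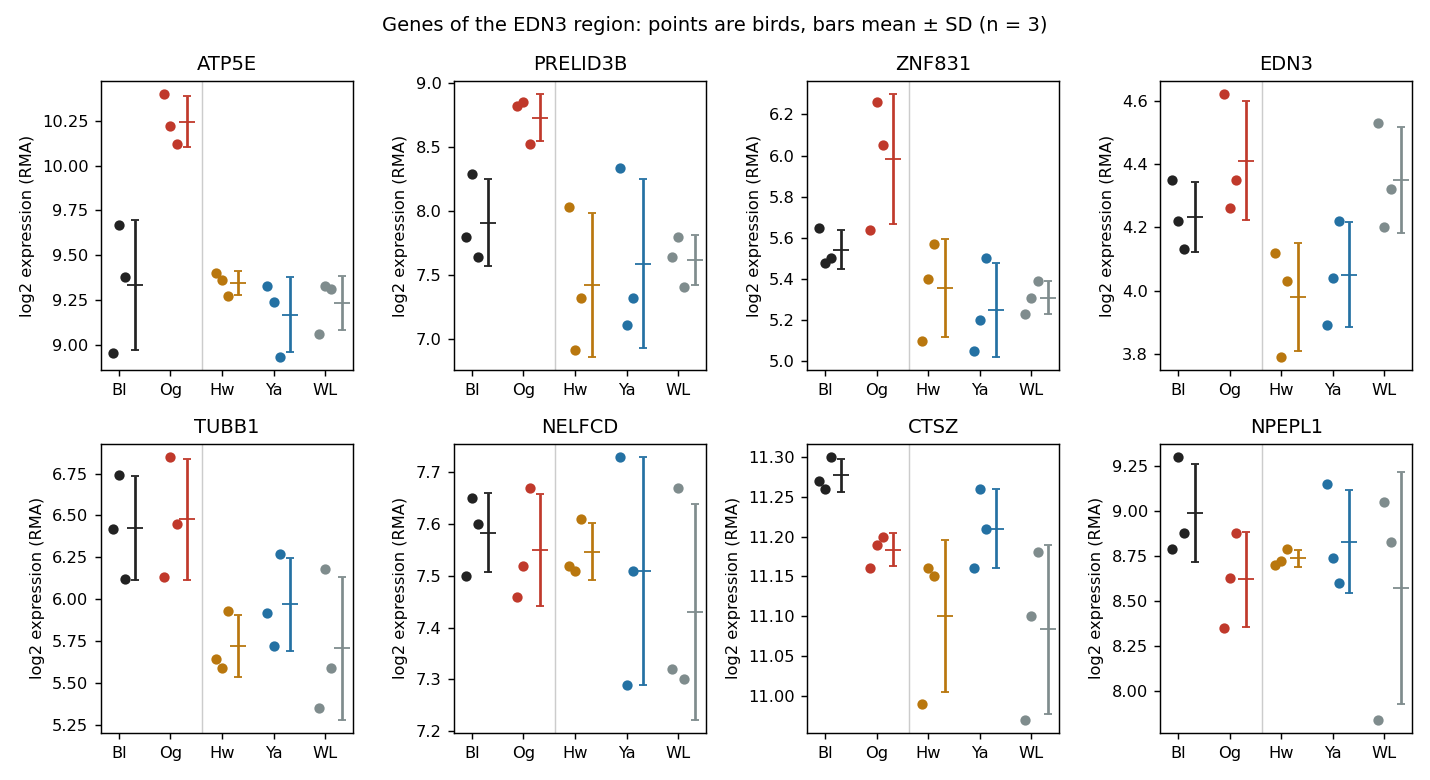
Log2 expression of the 8 measured genes of the EDN3 region in each of the 15 birds by breed; points are birds and bars are the mean ± SD of 3 birds. Og lies above Bl without overlap in the ATP5E and PRELID3B panels, and the 2 breeds do not overlap in the CTSZ panel, where Bl is higher, but do in the ZNF831, EDN3, TUBB1, NELFCD and NPEPL1 panels.

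Pigmentation genes split evenly between the 2 directions. Of 20 measured genes 10 lay above 0, and 4 were higher in Hyunin Black at an unadjusted p under 0.05 (4.78% of all features were), with 1 without Og 2 and 2 without Og 1, Bl 1 or Bl 2. TPCN2, a lysosomal channel, differed by 0.39 ± 0.16, SOX10, a factor of neural crest cells, by 0.36 ± 0.15 and KIT, the receptor that guides pigment cells, by 0.29 ± 0.12. TYRP1, an enzyme of melanin synthesis, read 2.74, 2.74 and 2.81 in Hyunin Black, against 2.56, 2.38 and 2.40 in Yeonsan Ogye. That is below HINTW and is not shown to be above background. KIT was below HINTW too, at 3.99, 4.06 and 3.91 in Hyunin Black and 3.49, 3.88 and 3.71 in Yeonsan Ogye. Only 4 of the 20 genes were left without the dimmest features. Of these, 2 lay above 0 and 1 was higher in Hyunin Black at an unadjusted p under 0.05. The counts over the 20 genes thus rest mostly on dim features.

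Lists of lipid metabolism had medians from -0.13 to 0.05, and no member passed over all features. In fatty acid and triglyceride synthesis 6 of 18 genes lay above 0 (median -0.06). GPAT4 and GPAT3, both of which start glycerolipid synthesis, differed in opposite directions, by 0.29 ± 0.12 and -0.59 ± 0.27. In cholesterol synthesis and uptake 2 of 14 lay above 0 (median -0.13) and 0 had an unadjusted p under 0.05 (8.05% of all features did). MVD, of the mevalonate pathway, differed by -0.19 ± 0.18. The birds of each breed were spread here, with list medians of -0.41, 0.00 and 0.29 in Hyunin Black and -0.41, 0.00 and 0.66 in Yeonsan Ogye, and the difference was 0.11 without Og 3 and -0.37 without Og 1. Fatty acid oxidation and ketogenesis had 19 of 26 genes above 0 (median 0.05), with ACOX2, a peroxisomal oxidase, at -0.30 ± 0.14. Lipoproteins and lipases had 16 of 24 above 0 (median 0.04), with ABCG1, a cholesterol exporter, at 0.39 ± 0.18. Neither list had a member at an unadjusted p under 0.05 (8.05% of all features did). Members ranged from -1.05 to 0.22 in fatty acid oxidation and ketogenesis, and from -0.61 to 0.39 in lipoproteins and lipases.

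Bile acid and yolk genes were likewise mixed. SLCO1B1, which takes bile acids and other anions up from blood, read 5.84, 4.96 and 5.22 in Hyunin Black, against 6.21, 6.59 and 6.53 in Yeonsan Ogye (-1.10 ± 0.28, adjusted p = 0.216). CYP7A1, which sets the pace of bile acid synthesis, differed by 0.84 ± 0.46 with overlapping birds, and the 15 genes of the list had a median of 0.04. Among yolk precursors, made by the livers of laying hens under estrogen, VTG1 at -0.39 ± 0.12 and VTG2 at 0.01 ± 0.14 read 3.48 to 4.49, as low as HINTW. APOV1, of yolk lipoprotein particles, read 7.58, 8.29 and 5.94 in Hyunin Black and 6.28, 7.75 and 6.90 in Yeonsan Ogye (0.29 ± 0.50), a wide spread in both. The progesterone receptor PGR differed by -0.44 ± 0.16. The other members differed by -0.33 to 0.13, namely TTR at 0.10, APOB at 0.05, RBP4 at 0.13, FAM20C at -0.11, GREB1 at -0.09 and the estrogen receptors ESR1 at 0.07 and ESR2 at -0.33.

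Nitrogen and sugar metabolism showed single genes apart. AGXT2, a mitochondrial aminotransferase, read 8.58, 8.78 and 7.96 in Hyunin Black, against 7.54, 7.26 and 7.39 in Yeonsan Ogye (1.04 ± 0.31, adjusted p = 0.351). IVD, of leucine breakdown, differed by 0.44 ± 0.13 and ALDH7A1, of lysine breakdown, by 0.29 ± 0.10. In amino acid catabolism 27 of 36 genes lay above 0 (median 0.12), and 5 were higher and 1, ARG2, lower at an unadjusted p under 0.05, against 4.78% and 3.27% of all features. XDH, which makes uric acid, read 10.79, 10.20 and 10.13 in Hyunin Black, against 9.76, 9.95 and 9.64 in Yeonsan Ogye (0.59 ± 0.22, adjusted p = 0.491). ADSS2, which feeds AMP synthesis, differed by 0.54 ± 0.13 and ADK, which salvages adenosine, by -0.21 ± 0.10, while the 23 purine genes had a median of 0.04. Among 23 genes of glucose production and glycolysis the median was -0.03, with PKLR, the liver pyruvate kinase, at 0.47 ± 0.13 and GYG2, which primes glycogen, at -0.39 ± 0.15.

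Ribosomal and respiratory chain lists had medians on opposite sides of 0, but in both the bird medians of the 2 breeds overlapped. These were taken relative to the mean of the 6 birds. For ribosomal proteins they were -0.04, -0.08 and -0.01 in Hyunin Black, against 0.17, -0.03 and 0.00 in Yeonsan Ogye. For the respiratory chain and ATP synthase they were -0.10, 0.12 and 0.10 in Hyunin Black, against 0.07, -0.06 and -0.11 in Yeonsan Ogye. Of 48 ribosomal proteins, 39 lay below 0 (median -0.09), and 6 were lower in Hyunin Black at an unadjusted p under 0.05 (3.27% of all features), with 0 higher. The lower count was 2 without Og 1 or Bl 2, 3 without Bl 1 or Ya 3 and with only the 6 arrays, and 7 without Og 2 or Bl 3. RPS29 read 9.97, 10.01 and 10.20 in Hyunin Black, against 10.44, 10.77 and 10.78 in Yeonsan Ogye (-0.60 ± 0.12, adjusted p = 0.139). RPL22L1 differed by -0.51 ± 0.23, RPS12 by -0.33 ± 0.10 and RPL6 by -0.26 ± 0.12. Without Og 1 the median was -0.04. Of 50 genes of the respiratory chain and ATP synthase 34 lay above 0 (median 0.09, and 0.02 without Bl 2), and 5 were higher with 0 lower at an unadjusted p under 0.05 (4.78% of all features were higher). The higher count was 1 without Og 2, Og 3 or Bl 2 and with only the 6 arrays, and 3 without Bl 3. The list left out ATP5E, the ATP synthase subunit given above with the EDN3 region. It was lower in Hyunin Black by more than any list member (-0.91 ± 0.16, against -0.30 for the lowest member). The 5 included the complex I subunits NDUFB3 at 0.43 ± 0.12 and NDUFB5 at 0.29 ± 0.13 and the ATP synthase subunits ATP5O at 0.34 ± 0.14 and ATP5C1 at 0.28 ± 0.12. In the cell cycle list 30 of 34 genes lay above 0 (51.3% of all features did), with a median of 0.20, and 0.04 without Bl 1. Only CENPF, of the kinetochore, was higher at an unadjusted p under 0.05 (0.37 ± 0.15). That is 2.94% of the list, against 4.78% of all features. Its bird medians overlapped, at 0.30, 0.04 and -0.11 in Hyunin Black, against -0.10, -0.12 and 0.03 in Yeonsan Ogye.

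Stress and hormone lists differed by little at the median. Endoplasmic reticulum stress had 7 of 30 genes above 0 (median -0.13, and -0.02 without Og 3), with ERO1B, which drives disulfide formation, at -0.38 ± 0.17. Heat shock and handling stress had a median of -0.06 over 32 genes, while the cochaperones AHSA1 at 0.39 ± 0.15 and DNAJA1 at 0.35 ± 0.16 lay above 0. Antioxidant genes had a median of 0.05 over 29, with TXNRD1, a thioredoxin reductase, at 0.52 ± 0.20. THRB, the main thyroid hormone receptor of liver, read 7.06, 6.98 and 7.09 in Hyunin Black, against 6.54, 6.69 and 6.78 in Yeonsan Ogye (0.38 ± 0.13, adjusted p = 0.45), in a list of 23 growth hormone and IGF genes with a median of 0.05. The 14 clock genes had 0 at an unadjusted p under 0.05 (8.05% of all features) and a median of 0.11, with BHLHE40 at -0.70 ± 0.47. The 21 coagulation genes had a median of 0.02. Of 40 genes of xenobiotic metabolism (median -0.03), MAOA rose past the threshold, the 1 member of any list that did. SULT, a sulfotransferase, read 10.11, 11.01 and 10.18 in Hyunin Black, against 8.66, 10.25 and 7.51 in Yeonsan Ogye (1.63 ± 0.52, adjusted p = 0.397). SULT1B1 differed by -0.76 ± 0.35 and CYP1B1 by 0.64 ± 0.27.

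Other cell types of the liver were compared through their markers. EPCAM, a surface protein of bile duct cells, read 8.06, 7.76 and 7.79 in Hyunin Black, against 8.83, 8.67 and 8.74 in Yeonsan Ogye (-0.88 ± 0.21, adjusted p = 0.203), whereas the list of 8 cholangiocyte markers had a median of 0.03 and overlapping summed levels, 1740 to 1950 in Hyunin Black and 1720 to 2030 in Yeonsan Ogye. Of 18 stellate cell and fibroblast markers, 15 lay below 0 (median -0.22), with a summed level of 3270 to 3550 in Hyunin Black and 3760 to 4540 in Yeonsan Ogye. RELN, a matrix protein of stellate cells, differed by -0.58 ± 0.25 and BMP5 by -0.36 ± 0.15, but POSTN, a matrix protein of activated fibroblasts, by 0.97 ± 0.26 in the other direction. Endothelial markers had a median of 0.13 over 13 genes, with CDH5, of endothelial junctions, at 0.42 ± 0.14, ERG at 0.35 ± 0.12 and SOX18 at -0.26 ± 0.12.

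Blood and carry-over markers were compared in the same way. Red cell markers had a median of 0.16 over 14 genes (0.02 without Og 3), with HBA1 at 0.50 ± 0.23 with overlapping birds. HBZ differed by -0.49 ± 0.15, but its other feature by -0.05 ± 0.15. RHCE had features in opposite directions, -0.99 ± 0.33 and 1.02 ± 0.35. In Hyunin Black, HBZ at 4.46 to 4.73 and RHCE at 2.85 to 4.71 in its listed feature were near or below HINTW. Thrombocyte markers had a median of -0.05 over 9, with TBXAS1 at 0.82 ± 0.33 and F13A1 at 0.55 ± 0.21. For TNFRSF13C, of B cells, the difference was -0.34 ± 0.17, and for CELA2A, of pancreas, -0.27 ± 0.14 in a list of 24 pancreas, gut, muscle and fat genes with a median of -0.03. The 3 measured W-linked genes had a median of 0.13. Hepatocyte markers had 9 of 19 genes above 0 and 0 at an unadjusted p under 0.05 (8.05% of all features).

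**Figure D5:**
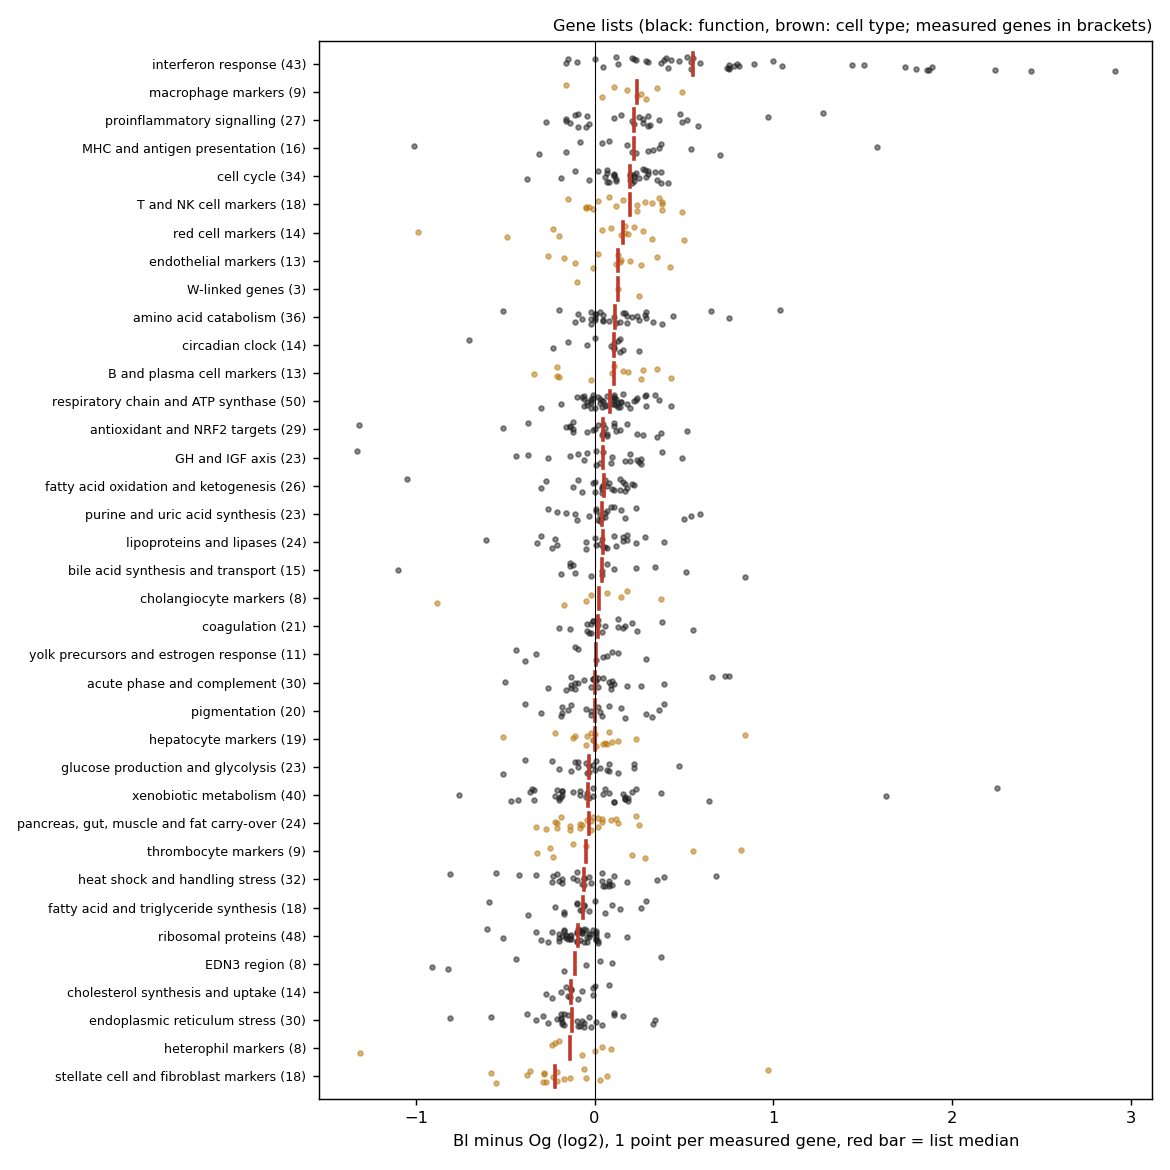
Bl minus Og (log2) for each measured gene of 37 lists, sorted by list median (red bars); black points belong to lists of gene function, brown points to cell type lists, and the number of measured genes is in brackets. The interferon response list has the highest median, 0.55, and the stellate cell and fibroblast list the lowest, -0.22.

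Some of the genes that differed lie next to each other in the order of measured genes along the chicken genome. Measured genes were put in their order on the GRCg7b assembly, so genes that were not measured may lie between the members of a pair. Of 10992 adjacent pairs, 9 (0.0819%) had both members at an unadjusted p under 0.01 in the same direction. Of the single genes placed, 2.2% had such a p. The 2 shares are unlike measures, and the share of pairs to be found among unlinked genes was not computed. EVC2 and EVC, which encode partner proteins of the primary cilium, differed by 0.80 ± 0.18 and 0.84 ± 0.22. SUSD3 lay between CARD19 at -0.66 ± 0.18 and FGD3 at -0.42 ± 0.13. CMPK2 with RSAD2, and DTX3L (0.75 ± 0.18) with its partner PARP9 (0.78 ± 0.22), are pairs within the interferon list. OASL lay beside SHISA5 at 0.47 ± 0.15, and B2M beside SNX1 at 0.30 ± 0.10. LBP lay beside TGM2 at 0.42 ± 0.11, and OGFR at 0.49 ± 0.15 beside COL9A3 at 0.37 ± 0.12. None of these genes passed over all features, and the pairs were listed after their values were seen.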

How the data were processed

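The deposited table holds log2 expression values per feature, and the submitters' processing notes name RMA and version 1.3.1 of Affymetrix Expression Console as the authors' tools. How probes were filtered and at which level they were summarised is not given in the sources used here. All 18308 features were used. The platform annotation gave exactly 1 symbol for 12300 features, several for 256 and none for 5752, and 0 symbols changed against the RefSeq gene table (GRCg7b), which was otherwise used only for gene order.

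The 15 arrays were fitted with 1 mean per breed (limma 3.58.1, lmFit and eBayes, under R 4.3.3, with 10 residual and 3.89 prior degrees of freedom), with the contrast Hyunin Black minus Yeonsan Ogye. P-values are two-sided and adjusted by Benjamini-Hochberg over all features. Differences carry the standard error of the model, with a median of 0.15. With 3 birds a breed, the smallest p of an exact permutation test is 0.1. The labels call the birds biological replicates. No batch is given. The number of arrays limits the precision.

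Each list gene stands with 1 feature, the one brightest on average. The 37 lists held 1185 symbols, of which 765 genes were matched by exact symbol. Lists are described by counts and medians, without a test. Named genes are the features that passed, the 8 largest differences in each direction (unadjusted p under 0.01, birds not overlapping), up to 4 members per list by unadjusted p, and all measured genes of the EDN3 region and yolk lists. The comparison, the lists and these rules were chosen with earlier results of these data known. The procedure was tested on simulated data.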

Additional observations from a re-analysis of the deposited data

How the results depend on the processing

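The count of 9 features was 9 to 12 with trend and robust moderation, array weights, quantile normalisation, median centring or the replicate block (12), and all 9 were shared in each of these fits except the first, where 8 of 10 were. It was 7 without the dimmest features and with 1 feature per named gene, 9 with a fold of at least 1.5 added, 4 with only the 6 arrays, and 99 at an unadjusted p under 0.05 with a fold of at least 2. The features higher in Hyunin Black, 4, became 2 without the dimmest features and 2 with only the 6 arrays, and those lower, 5, became 2 with the 6 arrays. With 1 array left out the counts ranged from 4 to 47 in all, from 0 to 36 higher and from 4 to 11 lower. The 1474 features at an unadjusted p under 0.05 became 932 with 1 feature per named gene, which tests fewer features, and 1158 to 1661 with 1 array left out.

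Same-numbered deviations from the breed means correlated at 0.0378, 0.12 and 0.118, and differently numbered ones at -0.122 to 0.00342. The same-numbered values were thus the highest. The labels give only a replicate number, and whether birds of the same number share anything was not tested. The main fit did not use the numbers as pairs. The fit with the replicate block had 12 calls, 3 more than without it.

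Medians of 11 of 37 lists moved by more than 1 SD between birds. Without the dimmest features the median was 0.06 for yolk, -0.11 for carry-over and -0.10 for W-linked genes, and for xenobiotic genes it was -0.01 with array weights and -0.06 after quantile normalisation. With 1 array left out the ranges were -0.06 to 0.03 for pigmentation, -0.09 to 0.06 for yolk, -0.09 to 0.05 for bile acids, -0.06 to -0.0066 for heat shock, -0.05 to 0.01 for xenobiotic genes, -0.0084 to 0.05 for hepatocytes, -0.24 to -0.17 for stellate cells, 0.08 to 0.30 for T and NK cells, -0.15 to 0.13 for thrombocytes and -0.03 to 0.31 for W-linked genes. The medians of 18 lists, none over 0.14 in size, changed sign when 1 bird of either breed was left out, among them cholesterol, lipoproteins, purine, acute phase, coagulation and B cells. Among named genes, 7 that did not pass changed sign. NELFCD was -0.01 after quantile normalisation and -0.01 to 0.09 with 1 array left out, and VTG2 -0.0012 with median centring and -0.08 to 0.07. TUBB1 ranged from -0.23 to 0.13, APOV1 from -0.22 to 0.96, ESR1 from -0.18 to 0.46, ESR2 from -0.69 to 0.12 and GREB1 from -0.28 to 0.02. The cause was not tested. Low signal limits, among others, MIR1803, 15512937 in Yeonsan Ogye, CRLF2 in Hyunin Black, EDN3, TYRP1 and the vitellogenins, for which background was not measured. The same holds for KIT, ARG2, GYG2, GREB1 and CELA2A, for HBZ and RHCE in Hyunin Black, and for TLR1A, B-G and RSAD2 in Yeonsan Ogye.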
